A study of Homo sapiens with 16 samples.

Results

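The transcripts of the NF-kB subunits, of IkB inhibitors and of feedback enzymes were followed in acute myeloid leukaemia (AML) cells that carry the t(8;21) translocation. The members were the 10 genes NFKB1, NFKB2, REL, RELA, RELB, NFKBIA, NFKBIB, NFKBIE, TNFAIP3 and BIRC3, found by gene name among the 60357 genes of each in vitro expression table. Kasumi-1 and SKNO-1 are established AML cell lines in which this translocation created the RUNX1/ETO fusion gene. Both lines were exposed once, for 24 h, to 2 µg/ml of lipid nanoparticles (LNPs), and their RNA was sequenced at day 3. The LNPs carried siRE-mod, a chemically modified siRNA against the fusion site of the RUNX1/ETO transcript, or siMM-mod, its mismatch control with swapped nucleotides. Each line had 3 libraries labelled LNP/siMM-mod (genotype label WT) and 3 labelled LNP/siRE-mod (genotype label RUNX1/ETO knockdown), 12 libraries in all. No library without LNPs was analysed here, and SKNO-1 medium contained GM-CSF while Kasumi-1 medium did not. The labels do not say that replicates came from separate cultures, so p-values measure the spread between these libraries, which may be technical. In addition, 4 libraries of Kasumi-1 cells from LNP-treated mice listed the 10 members with no count in any of them, but ACTB, GAPDH and EEF1A1 had none either, so these libraries gave no reading of the members.

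NF-kB is a family of dimeric transcription factors built from the products of NFKB1, NFKB2, REL, RELA and RELB. In resting cells IkB proteins hold the dimers in the cytoplasm, and signals from cytokine and Toll-like receptors activate the IKK kinase complex, which marks IkB proteins for degradation. Released dimers bind kappaB sites and induce, among many immune and survival genes, their own inhibitors NFKBIA and TNFAIP3, which ends the response, while NFKB2 and RELB form the slower non-canonical branch.

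Upstream sequence is shown for NFKBIA, TNFAIP3 and BIRC3, a choice made after their values were seen. They are the 3 members with the highest normalised levels in CPM (read counts scaled by library size) among the IkB inhibitors and feedback enzymes. The RefSeq promoter table (GRCh38.p14) held windows for 8 of the 10 members and none for RELB and NFKBIE. Each sequence is the part of the 250 bases before the RefSeq start that also precedes the gene start in the expression tables, written 5′ to 3′ along the gene. Capitals mark matches to the kappaB consensus motif, searched on both strands with overlapping matches joined. NFKBIA lies on the minus strand, and TNFAIP3 and BIRC3 lie on the plus strand.
NFKBIA chr14:35404750-35404999: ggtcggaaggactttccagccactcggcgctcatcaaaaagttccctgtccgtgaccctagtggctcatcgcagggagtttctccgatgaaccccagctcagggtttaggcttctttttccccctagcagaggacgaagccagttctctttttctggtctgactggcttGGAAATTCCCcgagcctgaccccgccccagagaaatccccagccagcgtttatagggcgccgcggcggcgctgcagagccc
TNFAIP3 chr6:137867009-137867213: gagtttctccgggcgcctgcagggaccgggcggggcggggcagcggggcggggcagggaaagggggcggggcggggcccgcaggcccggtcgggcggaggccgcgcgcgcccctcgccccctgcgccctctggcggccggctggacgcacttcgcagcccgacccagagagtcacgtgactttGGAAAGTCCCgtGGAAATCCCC
BIRC3 chr11:102317234-102317449: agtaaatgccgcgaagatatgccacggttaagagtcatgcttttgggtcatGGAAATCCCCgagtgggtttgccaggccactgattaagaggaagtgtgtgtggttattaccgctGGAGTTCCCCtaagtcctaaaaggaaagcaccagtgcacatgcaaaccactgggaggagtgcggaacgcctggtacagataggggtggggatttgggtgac
The NFKBIA stretch held 1 match, beginning 81 bases before the gene start. TNFAIP3 held 2, beginning 22 and 10 bases before it, and BIRC3 held 2, beginning 165 and 101 bases before it. In the whole 250 bases, 7 of the 8 members had a match (8 of their 13 windows), RELA being the exception, against 9.96% of the 35116 windows of the table. A match describes the letters of the window and does not show binding.

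The siRNA labels were first read against RUNX1T1, the gene that encodes ETO, whose counts include the fusion transcript. All levels below are normalised CPM, meaning the deposited CPM corrected by edgeR's TMM factors (0.854 to 1.19). In the libraries labelled Kasumi-1 siMM-mod, RUNX1T1 stood at 296, 92.7 and 161 normalised CPM, and in those labelled Kasumi-1 siRE-mod at 44.3, 159 and 37.2. In the libraries labelled SKNO-1, it stood at 329, 297 and 127 with siMM-mod and at 123, 164 and 40.3 with siRE-mod. The labelled groups overlapped for RUNX1T1 in Kasumi-1 and in SKNO-1, and its log2 fold change was -1.19 in both (SE 0.706 and 0.572, adjusted p = 0.392 and 0.491, edgeR quasi-likelihood test).

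CD34, a surface marker of progenitor cells, split the libraries further. It stood between 117 and 420.1 normalised CPM in 6 libraries and between 0.107 and 0.625 in the other 6, whereas IL5RA, the interleukin-5 receptor chain, ran from 0 to 0.178 in the former and from 36.2 to 67.8 in the latter. The 6 CD34-expressing and 6 CD34-silent libraries were each read as 3 with high and 3 with low RUNX1T1. High and low are ranks within each CD34 class, not shared levels. High RUNX1T1 was 296 to 329 normalised CPM in the CD34-expressing but 159 to 164 in the CD34-silent libraries. Low RUNX1T1 was 92.7 to 127 in the former and 37.2 to 44.3 in the latter. All 4 sets hold libraries labelled Kasumi-1 as well as SKNO-1. The CD34-expressing libraries with high RUNX1T1 were SKNO-1 siMM-mod replicates 1 and 2 and Kasumi-1 siMM-mod replicate 1. Those with low RUNX1T1 were SKNO-1 siMM-mod replicate 3, SKNO-1 siRE-mod replicate 1 and Kasumi-1 siMM-mod replicate 2. Among the CD34-silent libraries, RUNX1T1 was high in SKNO-1 siRE-mod replicate 2, Kasumi-1 siMM-mod replicate 3 and Kasumi-1 siRE-mod replicate 2. It was low in Kasumi-1 siRE-mod replicate 1, SKNO-1 siRE-mod replicate 3 and Kasumi-1 siRE-mod replicate 3. Every set of 3 values below follows this order.

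Pairs of libraries in the same set had correlations of log2 CPM across genes between 0.976 and 0.996 (12 pairs), pairs that shared only the CD34 reading between 0.955 and 0.977 (18 pairs), and pairs that differed in CD34 between 0.798 and 0.837 (36 pairs). The range within a set overlapped the range within a CD34 class through Kasumi-1 siMM-mod replicate 2. This library correlated at 0.976 with each of its set mates. With Kasumi-1 siMM-mod replicate 1, which was read as high RUNX1T1, it correlated at 0.977. Within its set it gave the highest values of RELA, RELB and NFKBIB. Pairs with the same label ranged from 0.801 to 0.995 (12 pairs), and genes are not independent replicates. Because these sets were read from the data, their values are given as a description, with no test and no mean. Whether they are the study's groups was not tested. Beside the members, the 7 myeloid markers reached 1 normalised CPM in every set. Their summed levels, mostly MPO, were 11158 to 25066 in the CD34-expressing and 2455 to 6488 in the CD34-silent libraries. MPO (10412 to 22611 against 1778 to 5736) and ELANE (534 to 1970 against 58.1 to 131) were lower where CD34 was silent. PTPRC (67.6 to 80.0 against 184 to 440) and CSF2RA (2.45 to 5.28 against 7.73 to 15.0) were higher there, and CD33, SPI1 and CEBPE overlapped. Of the progenitor markers listed beside CD34, KIT ran from 681 to 996 in the CD34-expressing and from 96.8 to 514 in the CD34-silent libraries. CD38 had the opposite order, from 8.40 to 9.91 in the former and from 153 to 217 in the latter. Of the 4 monocyte and macrophage markers, CD14 and CD163 stayed under 1 normalised CPM in every set. CSF1R ran from 8.05 to 24.9 in the CD34-expressing and from 0.615 to 1.53 in the CD34-silent libraries, and MRC1 from 0 to 0.0892 and from 6.46 to 10.2. No T cell or erythroid marker reached 1 normalised CPM in any set, whereas the B cell marker CD79A did in every set (at most 2.90), and the stromal marker PDGFRB did only in the CD34-silent libraries with high RUNX1T1 (at most 1.23). What part these markers have in the members' values was not tested, and in bulk RNA fewer cells of a type and less RNA per cell cannot be told apart.

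The feedback enzymes varied most. BIRC3 (ENSG00000023445.14, chr11:102317450-102339403, GRCh38, plus strand) encodes cIAP2, a ubiquitin ligase of TNF receptor complexes and an inhibitor of cell death. In the CD34-expressing libraries it stood at 0.171, 0.115 and 0.122 normalised CPM with high RUNX1T1 and at 0.469, 0.550 and 0.395 with low RUNX1T1. In the CD34-silent libraries it stood at 19.2, 17.3 and 15.6 with high RUNX1T1 and at 70.2, 104 and 74.8 with low RUNX1T1. The 4 sets did not overlap, and the lowest CD34-silent value was 28.4 times the highest CD34-expressing one. Between 8 and 37 reads lay behind each CD34-expressing value, against at least 1600 behind each CD34-silent one, so the former are the least precise levels among the members.

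TNFAIP3 (ENSG00000118503.15, chr6:137867214-137883312, plus strand) encodes A20, a ubiquitin-editing enzyme that shuts off signalling to IKK. It stood at 10.8, 9.07 and 9.86 normalised CPM with high RUNX1T1 and at 22.4, 23.5 and 23.1 with low RUNX1T1 in the CD34-expressing libraries. The CD34-silent values were 39.5, 37.4 and 35.8 with high RUNX1T1 and 82.9, 106 and 84.1 with low RUNX1T1. The 4 sets of TNFAIP3 were separate too, in the same order as those of BIRC3. The lowest low-RUNX1T1 value was 2.07 times the highest high-RUNX1T1 value in the CD34-expressing libraries and 2.10 times in the CD34-silent ones.

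Of the IkB inhibitors, NFKBIA (ENSG00000100906.10, chr14:35401511-35404749, minus strand), which encodes IkB-alpha, the first inhibitor to be resynthesised, had the highest levels. Its CD34-expressing values were 23.1, 26.6 and 27.0 normalised CPM with high RUNX1T1 and 31.2, 32.0 and 38.2 with low RUNX1T1. Its CD34-silent values were 36.6, 42.5 and 39.6 with high RUNX1T1 and 86.6, 110.4 and 96.1 with low RUNX1T1. The sets with low RUNX1T1 lay above those with high RUNX1T1 in both CD34 classes, while the expressing set with low RUNX1T1 and the silent set with high RUNX1T1 overlapped.

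NFKBIB (ENSG00000104825.17, chr19:38899700-38908893, plus strand) encodes IkB-beta, a slower inhibitor. Its normalised CPM was 9.49, 9.50 and 9.21, then 7.04, 6.69 and 11.5 in the CD34-expressing libraries with high and with low RUNX1T1. The CD34-silent libraries gave 6.95, 10.7 and 10.4 with high RUNX1T1 and 23.3, 23.9 and 26.1 with low RUNX1T1. The other 9 libraries overlapped, and the 3 CD34-silent libraries with low RUNX1T1 all stood above them. NFKBIE (ENSG00000146232.16, chr6:44258166-44265788, minus strand), which encodes IkB-epsilon, had normalised CPM of 13.3, 12.9 and 14.03 with high RUNX1T1 and of 7.68, 6.65 and 10.3 with low RUNX1T1 in the CD34-expressing libraries. Its CD34-silent values were 13.8, 16.7 and 18.4 with high RUNX1T1 and 21.6, 26.8 and 24.8 with low RUNX1T1. NFKBIE thus lay lower with low RUNX1T1 in the CD34-expressing libraries and higher with low RUNX1T1 in the CD34-silent ones.

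Among the subunits, the non-canonical pair varied most. RELB (ENSG00000104856.14, chr19:45001449-45038198, plus strand), the partner of processed NFKB2, stood at 7.42, 8.23 and 8.28 normalised CPM with high and at 6.26, 6.27 and 9.66 with low RUNX1T1 in the CD34-expressing libraries. It stood at 11.8, 16.4 and 16.2 with high and at 37.9, 46.5 and 43.2 with low RUNX1T1 in the CD34-silent ones. NFKB2 (ENSG00000077150.20, chr10:102394110-102402524, plus strand), which encodes p100 and its product p52, had CD34-expressing values of 24.8, 22.9 and 23.4 with high and of 18.3, 20.9 and 22.3 with low RUNX1T1. Both genes were higher in every CD34-silent library than in every CD34-expressing one. NFKB2 reached 35.2, 38.4 and 31.2 with high and 60.0, 66.7 and 64.4 with low RUNX1T1 in the CD34-silent libraries.

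The canonical subunits covered a narrower range. NFKB1 (ENSG00000109320.13, chr4:102501331-102617302, plus strand), which encodes p105 and its product p50, stood at 83.9, 84.5 and 84.3 normalised CPM with high and at 88.8, 88.5 and 102.9 with low RUNX1T1 in the CD34-expressing libraries. Its CD34-silent values were 88.8, 95.1 and 101 with high and 109, 138 and 118 with low RUNX1T1. SKNO-1 siRE-mod replicate 3 gave its highest value. RELA (ENSG00000173039.19, chr11:65653597-65663090, minus strand), which encodes the activating subunit p65, ran over 51.1, 54.0 and 53.5 with high and 47.6, 48.2 and 68.1 with low RUNX1T1 where CD34 was expressed. In the CD34-silent libraries RELA ran over 46.9, 63.2 and 56.7 with high and 73.3, 83.5 and 80.7 with low RUNX1T1. As with NFKBIB, only the 3 CD34-silent libraries with low RUNX1T1 stood apart.

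REL (ENSG00000162924.14, chr2:60881521-60931610, plus strand), which encodes c-Rel, an activating subunit prominent in blood cells, had the reverse order. It stood at 54.5, 48.8 and 46.9 normalised CPM with high and at 53.8, 53.8 and 45.5 with low RUNX1T1 in the CD34-expressing libraries. The CD34-silent values were 46.2, 40.4 and 42.1 with high and 35.0, 37.9 and 33.6 with low RUNX1T1. REL was the single member with its lowest values in the CD34-silent libraries with low RUNX1T1, but with CPM as deposited those values overlapped the other CD34-silent ones. A gene on the same strand, AC010733.2, shares 43.3% of REL's exonic length (5702 bases) and was listed at 0 in all 12 libraries, so REL reads in the shared bases may be missing from its counts.

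Between the CD34-silent libraries with low and with high RUNX1T1, 9 of 10 members were higher without overlap, against 21.7% of the 15863 genes tested over the 12 libraries, and REL was lower, against 21.6%. Between the CD34-expressing libraries with low and with high RUNX1T1, 4 members (NFKB1, NFKBIA, TNFAIP3 and BIRC3) were higher against 18.1% of genes, and 2 (NFKB2 and NFKBIE) were lower against 20.1%. The CD34 classes were not matched for RUNX1T1, which was lower in the CD34-silent libraries at either rank. At high RUNX1T1, 6 members were higher in the CD34-silent than in the CD34-expressing libraries (background 31.8%) and REL was lower (28.8%). At low RUNX1T1, 9 members were higher (32.6%) and REL was lower (28.9%). Over all 6 against 6 libraries, NFKB2, RELB, TNFAIP3 and BIRC3 were higher in each CD34-silent library (17.5%) and 0 members were lower (15.6%).

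With CPM as deposited, without the TMM factors, no member that had been higher lost its separation, while REL overlapped in each of these readings. Between low and high RUNX1T1, 9 members were then higher (background 31.1%) and 0 lower (15.3%) in the CD34-silent libraries, and 4 were higher (16.8%) and NFKBIE alone lower (17.1%) in the CD34-expressing ones. Between the CD34 classes, 7 members were higher at high RUNX1T1 (36.0%) and 9 at low RUNX1T1 (43.3%), with 0 lower (21.4% and 20.2%). Over all 6 against 6 libraries, 6 were higher (21.6%) and 0 lower (11.3%), NFKBIA and NFKBIE joining the 4 named above.

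By label, which is the comparison the design states, no member passed the test. In Kasumi-1, edgeR called 0 of 13608 genes (0%) for siRE-mod against siMM-mod, with 2435 genes at an unadjusted p under 0.05 and 1163 called by DESeq2 (8.55%). In SKNO-1, edgeR called 0 of 13628 genes (0%), with 1455 at an unadjusted p under 0.05 and 372 called by DESeq2 (2.73%). Of the 10 members, 9 had a log2 fold change above 0 in either line, with medians of 0.91 in Kasumi-1 (0.02 over all genes) and 0.70 in SKNO-1 (0.03 over all genes). Unadjusted p-values were under 0.05 for 6 members in Kasumi-1 and for 2 in SKNO-1. DESeq2 called RELB and TNFAIP3 higher in Kasumi-1, where it called 1.57% of genes higher, and TNFAIP3 and BIRC3 higher in SKNO-1, where it called 2.60% higher, and it gave no adjusted p for BIRC3 in Kasumi-1.

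The largest log2 fold changes were those of BIRC3, 3.20 in Kasumi-1 (SE 1.79, adjusted p = 0.375, edgeR) and 7.32 in SKNO-1 (SE 1.89, adjusted p = 0.466). The Kasumi-1 siMM-mod libraries alone spanned 0.122 to 17.3 normalised CPM for this gene, and the SKNO-1 siRE-mod libraries 0.550 to 104. TNFAIP3 had log2 fold changes of 1.54 (SE 0.555, adjusted p = 0.255) and 1.98 (SE 0.627, adjusted p = 0.466), and RELB of 1.51 (SE 0.441, adjusted p = 0.252) and 1.54 (SE 0.699, adjusted p = 0.476). For NFKBIA the estimates were 1.05 (SE 0.363, adjusted p = 0.253) and 1.13 (SE 0.482, adjusted p = 0.471). The remaining estimates ran from -0.26 for REL to 0.93 for NFKBIB in Kasumi-1 and from -0.19 for REL to 0.88 for NFKB2 in SKNO-1. The difference between the lines, tested as an interaction over 12 libraries, called 0 of 15863 genes with edgeR (106 at an unadjusted p under 0.05) and 127 with DESeq2 (0.801%), no member among them, and the members' unadjusted edgeR p-values ran from 0.130 to 0.986.

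**Figure D1:**
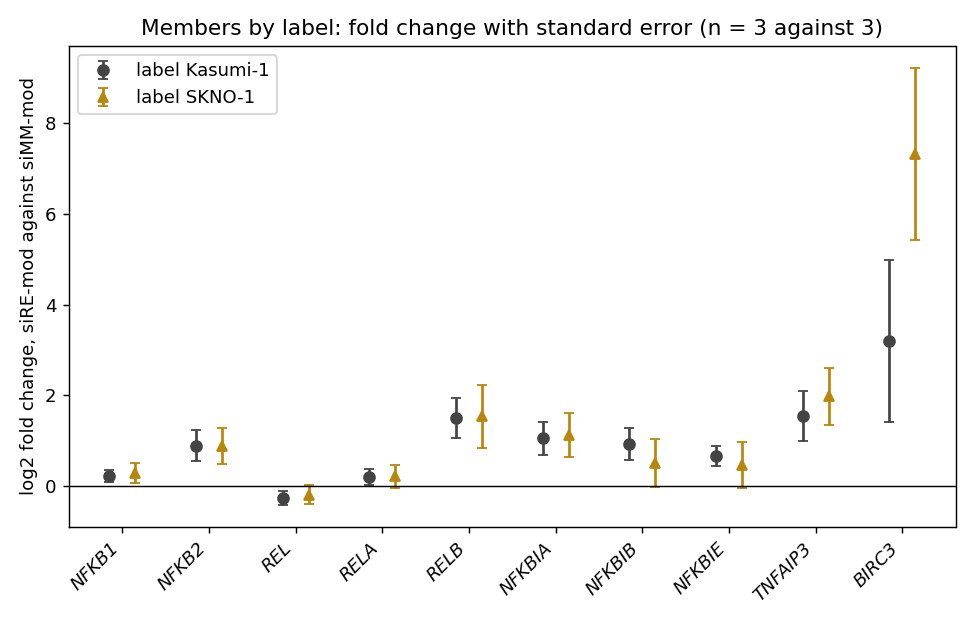
Log2 fold change of each member, labelled siRE-mod against labelled siMM-mod (vertical), for the labelled Kasumi-1 (circles) and SKNO-1 (triangles) libraries, 3 against 3, with bars of 1 standard error from edgeR. All points but those of REL lie above 0, and the bars of BIRC3 are the longest (1.79 and 1.89).

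A single library decided these calls in each line. Without Kasumi-1 siMM-mod replicate 3, which is CD34-silent, edgeR called 4250 of 13200 genes (32.2%), of which 2177 were higher (16.5%), and 5 members rose, namely NFKB2, RELB, NFKBIE, TNFAIP3 and BIRC3. BIRC3 then had a log2 fold change of 7.68 (SE 1.08, edgeR). The siMM-mod libraries left in this fit held 9 and 31 BIRC3 reads, and the siRE-mod libraries held 2034 to 8515. Without SKNO-1 siRE-mod replicate 1, which is CD34-expressing, edgeR called 2535 of 13119 genes (19.3%), of which 1413 were higher (10.8%), and 4 members rose, namely NFKB2, RELB, TNFAIP3 and BIRC3. In this fit BIRC3 had a log2 fold change of 7.89 (SE 0.95, edgeR). The siMM-mod libraries held 8 to 30 BIRC3 reads, and the siRE-mod libraries left held 1873 and 15982. Here too BIRC3 passed the filter only through the siRE-mod libraries. In both of these fits, which leave 2 libraries in one arm, every remaining siMM-mod library was CD34-expressing and every siRE-mod library CD34-silent, so the siRNA label and the CD34 reading cannot be told apart there. Without SKNO-1 siRE-mod replicate 3, the log2 fold changes of RELA, NFKBIB and NFKBIE in SKNO-1 turned to -0.064, -0.31 and -0.11.

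Per length, the order of the members differed between the sets. Levels between genes are given as normalised FPKM, the deposited CPM per kilobase of exon (FPKM) corrected by the TMM factors. In the CD34-expressing libraries with high RUNX1T1, NFKB1 was highest at 13.2 to 13.3 normalised FPKM, followed by NFKBIA at 9.73 to 11.4 and RELA at 9.36 to 9.89, which overlapped each other. TNFAIP3 and BIRC3 came last there, at 1.80 to 2.15 and 0.0153 to 0.0227. In the CD34-silent libraries with low RUNX1T1, NFKBIA led with 36.5 to 46.5 normalised FPKM, above NFKB1 (17.2 to 21.7) and TNFAIP3 (16.5 to 21.1), which overlapped each other. BIRC3 reached 9.34 to 13.8, overlapping NFKBIB (10.0 to 11.2) and NFKBIE (8.38 to 10.4), and REL was last at 2.55 to 2.88. The inhibitor NFKBIA therefore stood below the subunit NFKB1 in the former set and above it in the latter, and the ranges of NFKBIA and NFKB1 overlapped in the other 2 sets.

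The rest of the pathway was read from a list of 63 other genes, of which 57 were tested over the 12 libraries. Between the CD34-silent libraries with low and with high RUNX1T1, 28 of the 57 were higher without overlap and 8 lower, beside the 21.7% and 21.6% of all genes. In the CD34-expressing libraries the same reading gave 16 higher and 16 lower, beside 18.1% and 20.1%. With CPM as deposited these counts were 33 higher and 7 lower in the CD34-silent libraries (31.1% and 15.3% of all genes) and 10 higher and 16 lower in the CD34-expressing ones (16.8% and 17.1%). By label edgeR called 0 of the 53 tested in Kasumi-1 and 0 of the 51 tested in SKNO-1. At an unadjusted p under 0.05 there were 15 and 12, beside 2435 of 13608 and 1455 of 13628 of all genes. DESeq2 called 5 and 3 higher, beside 1.57% and 2.60% of all genes.

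Of the 5 other negative regulators tested, 4 were higher with low RUNX1T1 in the CD34-silent libraries (21.7% of all genes) and 3 in the CD34-expressing ones (18.1%), and none was lower in either. With CPM as deposited these counts were 4 (31.1% of all genes) and 2 (16.8%). The adaptor of A20, TNIP1, ran from 73.5 to 114 normalised CPM in the CD34-expressing and from 132 to 175 in the CD34-silent libraries, and its values with low and with high RUNX1T1 overlapped in either class. CYLD, a deubiquitinase that limits IKK activation, stood at 26.3 to 29.7 with high and 45.8 to 51.5 with low RUNX1T1 where CD34 was expressed, and at 45.5 to 51.3 and 73.5 to 95.5 where CD34 was silent. OTULIN, which removes linear ubiquitin chains, ran from 32.8 to 41.7 in the CD34-expressing and from 61.2 to 78.8 in the CD34-silent libraries. Where CD34 was expressed, the lowest CYLD value with low RUNX1T1 was 1.54 times the highest with high RUNX1T1. That margin was only 1.01 times for OTULIN and 1.004 times for the remaining gene counted as higher there.

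Of the 19 known NF-kB target genes tested, 9 were higher and 1 lower with low RUNX1T1 in the CD34-silent libraries (21.7% and 21.6% of all genes). In the CD34-expressing ones 3 were higher and 10 lower (18.1% and 20.1% of all genes). With CPM as deposited the counts were 11 and 1 (31.1% and 15.3%) and 4 and 10 (16.8% and 17.1%). Among the 3 most abundant, SOD2, a mitochondrial superoxide dismutase, stood at 61.5 to 66.3 normalised CPM with high and 37.5 to 46.8 with low RUNX1T1 where CD34 was expressed, and at 39.7 to 43.2 and 18.3 to 21.6 where CD34 was silent. CCND2, which encodes the cell cycle regulator cyclin D2, stood at 321 to 350.1 with high and 206 to 238 with low RUNX1T1 in the CD34-expressing libraries, and at 294 to 331 and 230.2 to 295 in the CD34-silent ones. The study also names CCND2 a direct target of RUNX1/ETO, and what part either regulator has in its values was not tested. IL6ST, the shared receptor chain of the IL-6 family, ran from 29.6 to 47.5 over the 12 libraries, and its values with low and with high RUNX1T1 overlapped in either CD34 class. None of these 3 had its highest values in the CD34-silent libraries with low RUNX1T1, but 8 other target genes did, namely CXCL8, TNF, IER3, CD83, PLAU, PTGS2, TNFAIP2 and IRF1, named after their values were seen. Of these, CXCL8, a neutrophil-attracting chemokine, stood at 71.2 to 75.8 normalised CPM there and at no more than 23.6 elsewhere, and the cytokine TNF at 7.59 to 9.65 and at no more than 1.61. Where CD34 was expressed, CXCL8 was lower with low RUNX1T1 (1.99 to 2.66 against 4.40 to 7.34), as were PTGS2 and IRF1. There TNFAIP2 was higher, and TNF, IER3, CD83 and PLAU overlapped. The 3 CD34-silent libraries with low RUNX1T1 lay above the other 9 for 9 of 10 members and 8 of 19 targets, against 10.9% of all genes, and with CPM as deposited for 9 and 9, against 20.3%.

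Of the 3 other IkB proteins, BCL3, a nuclear IkB protein that binds p50 and p52, ranged from 0.71 to 1.80 normalised CPM in the CD34-expressing libraries with high RUNX1T1 to 22.7 to 26.1 in the CD34-silent libraries with low RUNX1T1. NFKBIZ, another nuclear IkB protein, was highest at 13.99 to 17.1 in the CD34-silent libraries with high RUNX1T1, where it overlapped the low-RUNX1T1 ones with CPM as deposited, and NFKBID ran from 2.11 to 10.1 over the 12 libraries. Of the 10 IKK subunits and upstream kinases, 4 were higher and 1 lower with low RUNX1T1 in either CD34 class, beside 21.7% and 21.6% of all genes in the CD34-silent and 18.1% and 20.1% in the CD34-expressing libraries. With CPM as deposited 6 were higher in the CD34-silent (31.1% of all genes) and 0 in the CD34-expressing libraries (16.8%). The most abundant of these, MAP3K7, ran from 74.1 to 83.8 normalised CPM in the CD34-expressing libraries. In the CD34-silent ones it stood at 52.5 to 56.6 with high and at 59.5 to 75.6 with low RUNX1T1. TAB2, an adaptor of the kinase TAK1, ran from 44.8 to 49.7 in the CD34-expressing and from 79.9 to 103 in the CD34-silent libraries. TBK1 ran from 44.5 to 50.5 in the former and from 69.3 to 95.3 in the latter. Among the 6 receptors tested, 3 were higher and 3 lower with low RUNX1T1 in the CD34-silent libraries (21.7% and 21.6% of all genes). In the CD34-expressing ones 1 was higher and 2 lower (18.1% and 20.1%). With CPM as deposited these counts were 3 and 3 (31.1% and 15.3%) and 1 and 3 (16.8% and 17.1%). TNFRSF1A, the main TNF receptor, was the most abundant receptor, at 151 to 277 normalised CPM. Where CD34 was silent TNFRSF1A stood at 198 to 258 with high and 151 to 183 with low RUNX1T1, and it overlapped where CD34 was expressed. TLR2 and TLR4, receptors for bacterial products, had opposite orders. TLR2 ranged from 34.3 to 35.9 in the CD34-expressing libraries with high RUNX1T1 down to 6.84 to 7.55 in the CD34-silent libraries with low RUNX1T1, and TLR4 between the same sets from 4.28 to 4.61 up to 18.7 to 23.0. Of 14 adaptors and ubiquitin ligases, 6 were higher and 2 lower with low RUNX1T1 in the CD34-silent libraries (21.7% and 21.6% of all genes), and 7 and 2 with CPM as deposited (31.1% and 15.3%). In the CD34-expressing libraries 3 were higher and 3 lower (18.1% and 20.1%), and 1 and 2 with CPM as deposited (16.8% and 17.1%). BIRC2, the paralogue of BIRC3 that encodes cIAP1, ran in the CD34-silent libraries from 46.7 to 57.6 with high to 61.3 to 78.6 with low RUNX1T1. TRAF3 ran there from 43.4 to 55.6 with high to 80.1 to 87.5 with low RUNX1T1, and IRAK1, the most abundant, from 36.0 to 51.1 to 87.8 to 98.9. Where CD34 was expressed, BIRC2 ran from 27.8 to 37.0, TRAF3 from 33.3 to 43.4 and IRAK1 from 87.4 to 134.

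The genes whose log2 CPM followed a member most closely within both CD34 classes were named by the highest smaller Pearson r among 7615 genes with a mean of at least 16 CPM. For BIRC3 this gene was CYLD, with r = 0.989 over the 6 CD34-expressing and 0.988 over the 6 CD34-silent libraries. The CD34-expressing values of BIRC3 rest on 8 to 37 reads. For TNFAIP3 it was FAM102B (0.994 and 0.995), for NFKBIA it was CDK2 (0.992 and 0.992), and for RELB it was GUCD1 (0.985 and 0.991). NFKBIE was followed by DDX20 (0.995 and 0.990), RELA by SRPRA (0.989 and 0.983) and NFKBIB by NPTN (0.983 and 0.977). REL was followed by BRWD3 (0.975 and 0.988), NFKB1 by RNF10 (0.972 and 0.986) and NFKB2 by SLC37A1 (0.953 and 0.940). Each class of 6 libraries falls into 2 sets of 3 by RUNX1T1, so these values describe mainly the step between the sets and carry no p-value.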

How the data were processed

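RNA-seq libraries of the in vitro Kasumi-1 and SKNO-1 cells were analysed from 12 deposited gene tables. The authors deposited read counts per gene over exons, with CPM and FPKM computed from them. Per the file headers these came from Rsubread 1.32.4 under R 3.5.1, and the submitters' processing notes name STAR 2.7.10a, Trim Galore 0.6.5, Bowtie2 2.4.5 and Subread 1.6.5. The notes list GRCh37 and GRCh38, and the coordinates in the tables are those of GRCh38. Strand and overlap settings of the counting are not given in the sources used here. Total counts ran from 60559466 to 147990959 per library (median 89160101). The 4 in vivo tables hold deposited counts that placed 0.0200% to 0.0335% of reads on genes, and they entered no comparison. No 2 libraries agreed within sampling noise (chi-square per degree of freedom at least 26.2).

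Genes whose reads summed to 600 or more in the libraries fitted were tested with edgeR 4.0.16 (R 4.3.3), by TMM normalisation and the robust quasi-likelihood test, with Benjamini-Hochberg adjustment over all genes tested and a threshold of 0.05. The labels set the groups, within each line and as an interaction over the 12 libraries. DESeq2 1.42.0, other scalings, filters, a replicate block and each library left out were the alternatives. The test was checked on simulated counts with a dispersion (spread between libraries) of 0.02. It recovered 194, 187 and 175 of 200 changed genes for Kasumi-1, SKNO-1 and the difference between the lines. The common dispersions in the fits were 0.197, 0.246 and 0.241, so this check does not show how many changed genes those fits could find. CD34 and RUNX1T1 readings were used for description. Normalised CPM and FPKM are the deposited CPM and FPKM divided by the TMM factor. All 10 members and RUNX1T1, CD34 and IL5RA are named whatever their values, and of other pathway genes up to 3 per role with the highest mean CPM. The members and lists were chosen with earlier results of these data known. LTBR and N4BP1 were on the list and not analysed here.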

Additional observations from a re-analysis of the deposited data

How the results depend on the processing

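The direction of the members' changes by label held under most alternatives. Apart from single libraries left out, 115 log2 fold changes of members kept their direction and their side of the threshold and 4 passed it, all with DESeq2. DESeq2 called 1163 genes for the Kasumi-1 labels, 372 for the SKNO-1 labels and 127 for the difference between the lines, where edgeR called 0. With 1 library left out, edgeR called 0 to 4250 genes in Kasumi-1 and 0 to 2535 in SKNO-1, the highest counts being those without Kasumi-1 siMM-mod replicate 3 and without SKNO-1 siRE-mod replicate 1, with 0 for each other library. The difference between the lines stayed at 0 throughout. In SKNO-1 the log2 fold changes ran from -0.064 to 0.36 for RELA, from -0.31 to 0.79 for NFKBIB and from -0.11 to 0.82 for NFKBIE, each below 0 without SKNO-1 siRE-mod replicate 3. With CPM as deposited, an alternative chosen after seeing the data, REL overlapped where it had been lower, which left 0 lower members in the CD34-silent libraries and 0 and 0 between the CD34 classes at high and at low RUNX1T1. In the CD34-expressing libraries NFKB2 overlapped, which left 1 lower member, NFKBIE. The cause was not tested.

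With the replicate number as a block, edgeR called 0 genes for either line and 0 for the difference, with 1763, 1133 and 21 at an unadjusted p under 0.05. Deviations of same-numbered libraries from their label means had correlations of -0.27 to -0.01 in Kasumi-1 and -0.25 to -0.02 in SKNO-1. Each labelled group mixes CD34 or RUNX1T1 readings, which enter these deviations. The correlations therefore cannot show whether same-numbered libraries belong together. Depth limits BIRC3 in the CD34-expressing libraries, at 8 to 37 reads, and the other members had at least 400 reads in every library.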
